A study of Mus musculus with 4 samples.

Results

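IGF2BP3 eCLIP-seq clusters that lay in the last 100 bases of a coding sequence, directly before the end of translation, were examined in mouse testis. A cluster was taken when its centre fell, on the strand of the gene, in the last 100 spliced bases of a CDS of at least 600 bases, stop codon included. Each protein-coding gene was read from 1 transcript of GENCODE M21 (mm10), the one with the longest CDS. This rule found 3323 of 337234 clusters in replicate 1, in 2798 genes, and 2665 of 216354 clusters in replicate 2, in 2281 genes. It used position alone and no measured value. A total of 18422 genes had a CDS long enough, and 1222 of them held such a cluster in both replicates.

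The data came from whole testes of wild-type C57BL/6 mice aged 8 weeks, and the labels list no allele and no treatment other than crosslinking in any sample. The tissue was crosslinked with ultraviolet light of 254 nm at 400 mJ/cm2. Each of 2 replicates paired 1 library of RNA pulled down with an IGF2BP3 antibody (IP) with 1 size-matched input (SMInput), which is RNA of the same lysate and size range without the antibody, so that 4 libraries were used. Germ cells and somatic cells were not separated, so a site cannot be given to one of them. Clusters lay on all 12 marker genes examined, with 7 to 75 and 7 to 76 clusters (replicates 1 and 2) on the 6 germ cell markers, 1 to 82 and 3 to 65 on the 3 Sertoli cell markers and 2 to 15 and 2 to 14 on the 3 Leydig cell markers. Clusters were counted here whether significant or not, introns included and without regard to gene length. The counts therefore do not compare binding between cell types. The highest Sertoli cell numbers, 82 and 65, came from Wt1.

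IGF2BP3 is an RNA-binding protein of the family that recognises N6-methyladenosine (m6A) in mRNA, and it is known to affect the stability and the translation of its targets. In mammalian mRNA, m6A is known to be concentrated around the stop codon and in the long last exon. RNA before a stop codon is crossed by ribosomes, whereas the 3'UTR behind it is not, which makes the end of the CDS a border between translated and untranslated mRNA.

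The last 30 bases of the CDS are given for 9 of the 10 genes whose site was the strongest in both replicates, because these are the translated ends that the clusters described below met or lay beside. They were read 5′ to 3′ from the GENCODE M21 transcripts, with the stop codon in capitals.
1700001C19Rik (chr17:47413562-47413591, minus strand): ccagcaaacctgatcttgtggcgcaccTAG
St6galnac2 (chr11:116679991-116680020, minus strand): cgctctgtccacttctatcgtgggaccTAG
Spata31 (chr13:64923055-64923084, plus strand): tctgtagtttttcctaataggaaaacaTAA
9930021J03Rik (chr19:29716008-29716037, minus strand): ttagagaagcctgacacagctgcatctTGA
Paqr5 (chr9:61956046-61956075, minus strand): gagcctgaattacatgaaaaggaaacaTGA
Cnot4 (chr6:35023131-35023160, minus strand): ctacagagttccacactggaccgccacTAA
Cfap300 (chr9:8022416-8022445, minus strand): cactgctatggtgtagggcacatggctTAG
Spata3 (chr1:86026490-86026519, plus strand): ggccttgggagttgcctacttcatggcTGA
Cbll1 (chr12:31487279-31487308, minus strand): caaacaagatacagaccgtattaccagTGA
In Cnot4 the replicate 1 cluster covered all 30 of these bases, and in Cfap300 likewise. In 1700001C19Rik and Spata3 the strongest pair of overlapping clusters ended before these bases in both replicates. Another significant cluster covered all 30 of them, in replicate 2 of 1700001C19Rik and in both replicates of Spata3. In Spata31 the clusters reached 2 and 3 of the printed bases.

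A cluster was counted as significant when the deposited log2(fold change) of IP over SMInput and the deposited −log10(P value) were both at least 2. Before the stop codon, 329 clusters of replicate 1 were significant, a share of 9.90% (95% Wilson interval 8.93% to 11.0%), against 4.92% of all clusters of that replicate. In replicate 2 it was 407 clusters or 15.3% (14.0% to 16.7%), against 13.2% of all clusters. With both thresholds at 3 the shares were 2.38% and 3.11%, against 1.18% and 2.42% of all clusters. The set of all clusters differed from those before the stop codon in depth and enrichment, with fewer reads (median 4 IP and 2 SMInput reads in replicate 1, 4 and 6 in replicate 2, against 8 and 5, and 8 and 11). It had a higher median log2(fold change) (1.5 against 1.18, and 1.53 against 1.29). The shares of the replicates are not on one footing, because the usable reads recovered from the tables were 5133438 (IP) and 8706391 (SMInput) in replicate 1 and 4637612 and 16696122 in replicate 2. Some clusters passed only 1 of the 2 criteria: 237 and 350 had the P value without the fold change, and 450 and 238 the fold change without the P value. Intervals cover counting error only, neighbouring clusters share reads, and clusters are not replicates of a condition.

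From the first bases of the CDS to the 3'UTR the share of significant clusters increased in both replicates, and the end of the CDS lay between the rest of the CDS and the 3'UTR. In the rest of the CDS, without its first and last 100 bases, 5.08% and 7.69% of clusters were significant in replicates 1 and 2. The odds of a significant cluster before the stop codon were higher than there by an odds ratio of 2.05 (95% interval 1.82 to 2.31; two-sided Fisher's exact test, adjusted p = 1.33e-27) and 2.16 (1.94 to 2.41; adjusted p = 3.15e-36). Within the last exon alone this comparison turned round, as given below. Against the first 100 bases of the CDS, where 3.38% and 5.70% were significant, the odds ratios were 3.14 (2.58 to 3.82; adjusted p = 8.13e-32) and 2.98 (2.50 to 3.55; adjusted p = 8.51e-36, Fisher's exact test). In the first 100 bases of the 3'UTR the share was 13.5% and 23.1%, so that the odds before the stop codon were lower, with odds ratios of 0.704 (0.604 to 0.820; adjusted p = 1.51e-05) and 0.60 (0.522 to 0.690; adjusted p = 1.23e-12, Fisher's exact test). The rest of the 3'UTR had the highest share of the transcript regions, with 20.3% and 36.5%. Clusters in the rest of the CDS had a median of 7 IP and 5 SMInput reads in replicate 1 and 7 and 11 in replicate 2, close to those before the stop codon, and a lower median log2(fold change) (0.76 and 0.90).

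**Figure D1:**
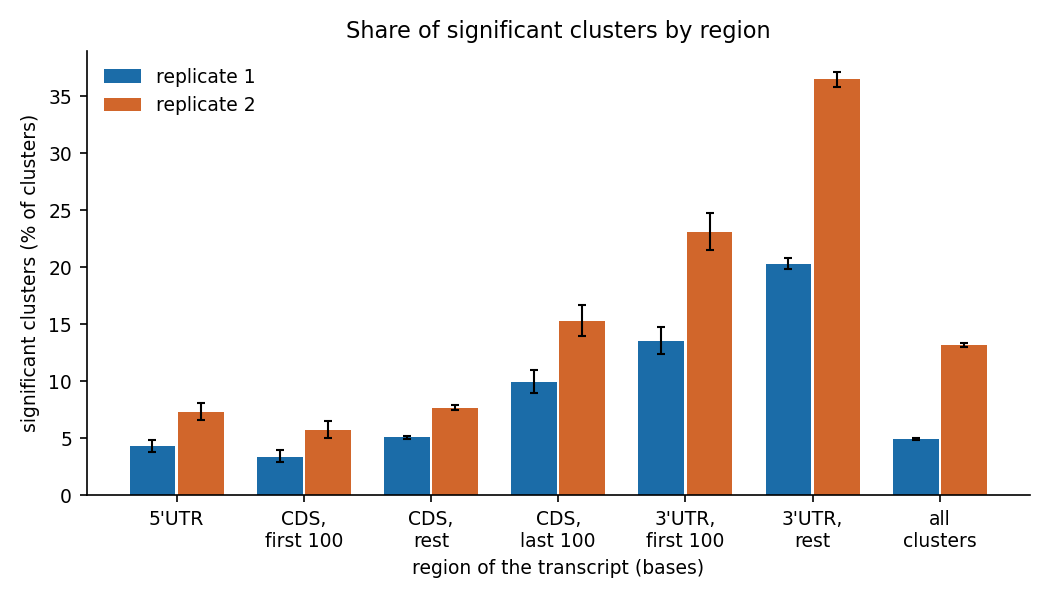
Bars give the percentage of clusters that were significant (y axis) in each region of the transcript and among all clusters (x axis), for replicates 1 and 2, with 95% Wilson intervals. The last 100 bases of the CDS, at 9.90% and 15.3%, stand above the rest of the CDS and below both parts of the 3'UTR.

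In the 20 bases on each side of the CDS end the shares had overlapping intervals in each replicate, whereas over 100 bases on each side they did not overlap. In bins of 20 bases, the last 20 bases of the CDS had 11.0% significant clusters in replicate 1 and 16.4% in replicate 2 (95% Wilson intervals 8.70% to 13.8% and 13.2% to 20.1%). The first 20 bases of the 3'UTR had 12.9% and 21.6% (10.5% to 15.8% and 18.2% to 25.5%). Further downstream the share went from 12.6% (61 to 80 bases into the 3'UTR) to 18.9% (81 to 100 bases) in replicate 1, and from 24.4% to 28.7% in replicate 2. Upstream, 181 to 200 bases before the CDS end, the shares were 5.96% and 10.8%. Within the last 100 bases, clusters in the 50 bases nearest the end were significant more often than those 51 to 100 bases away, with 11.2% against 8.83% in replicate 1 (odds ratio 1.30, 1.04 to 1.64; Fisher's exact test, adjusted p = 0.0353) and 16.9% against 13.9% in replicate 2 (1.26, 1.02 to 1.56; adjusted p = 0.0414). With both thresholds at 3 this difference was lost, and its direction turned in replicate 1 (odds ratio 0.916). Just inside the window, 91 to 100 bases from the end, 8.47% and 14.8% of clusters were significant, and in the 10 bases just outside it 9.92% and 10.2%.

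**Figure D2:**
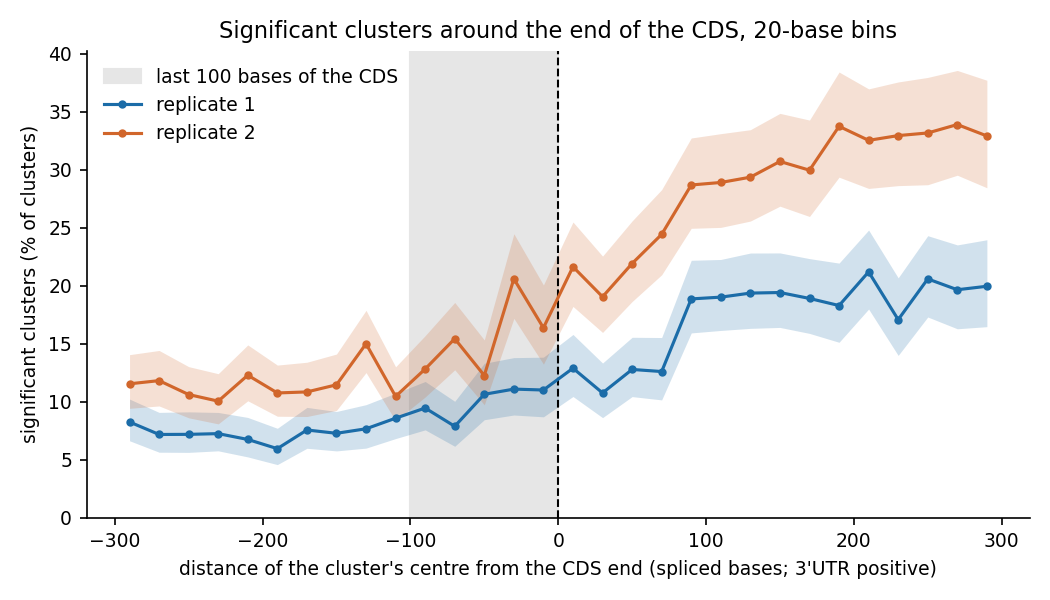
The percentage of significant clusters (y axis) is plotted by the distance of the cluster's centre from the CDS end in spliced bases (x axis, 3'UTR positive), in 20-base bins, with 95% Wilson intervals as bands and the last 100 bases of the CDS shaded. The shares go from 9.46% and 12.8% in the first bin of the shaded window to 11.0% and 16.4% in its last bin and to 18.9% and 28.7% at 81 to 100 bases into the 3'UTR.

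The share of significant clusters also went with the exon in which they lay. Before the stop codon, 2568 clusters of replicate 1 (77.3%) lay in the last exon, and 11.1% of these were significant, against 5.83% in earlier exons (odds ratio 2.02, 1.45 to 2.80; Fisher's exact test, adjusted p = 1.92e-05). In replicate 2 the shares were 16.8% and 10.4% (1.73, 1.31 to 2.29; Fisher's exact test, adjusted p = 1.24e-04). With both thresholds at 3 the odds ratios were 1.26 and 1.22 and did not pass (Fisher's exact test, adjusted p = 0.562 in both). In the rest of the CDS, 13.6% and 21% of last-exon clusters were significant, against 4.47% and 6.82% in earlier exons. When only the last exon was compared, the end of the CDS had lower odds than the rest of the CDS, with odds ratios of 0.791 (0.684 to 0.916; adjusted p = 0.00171) and 0.761 (0.662 to 0.875; adjusted p = 2.28e-04, Fisher's exact test). Compared within the same genes, in 140 and 156 genes whose last exon informed the estimate, the odds were higher at the end of the CDS, with pooled odds ratios of 2.04 (1.42 to 2.92) and 1.56 (1.13 to 2.15). In earlier exons the odds ratios were 1.32 (0.974 to 1.80; adjusted p = 0.0765) and 1.59 (1.23 to 2.06; adjusted p = 0.00168, Fisher's exact test). The comparisons within the last exon and within earlier exons were added after the data were seen, and their p-values were adjusted over the 2 replicates.

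Inside the last exon, the shares were highest far from the stop codon. More than 800 bases upstream of the CDS end, 16.7% of 1320 clusters in replicate 1 and 26.6% of 979 in replicate 2 were significant. Between the window and 200 bases from the end the shares were 9.78% and 14.6%, and in the last 50 bases 12.1% and 17.7%. Clusters over 800 bases from the end came from only 522 and 436 genes with a long last coding exon, so the bins hold different genes.

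**Figure D3:**
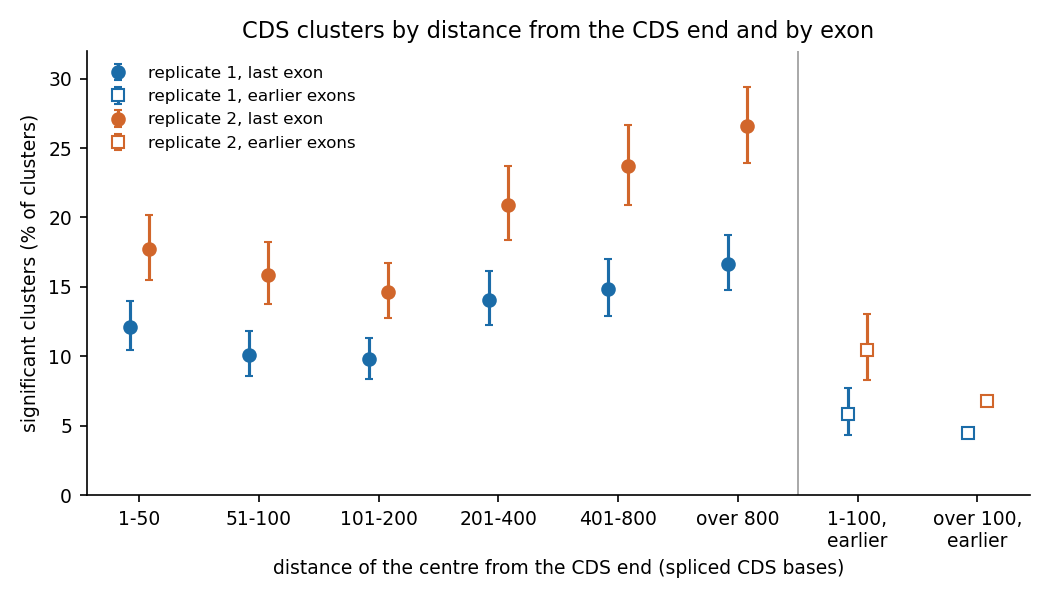
The percentage of significant CDS clusters (y axis, 95% Wilson intervals) is plotted by distance from the CDS end (x axis, spliced CDS bases), for the last exon (filled circles) and earlier exons (open squares). In the last exon the share goes from 12.1% and 17.7% in the last 50 bases to 16.7% and 26.6% beyond 800 bases, and earlier exons lie lower, at 5.83% and 10.4% in the last 100 bases.

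Many clusters before the stop codon ran on into the 3'UTR. In replicate 1, 737 of the 3323 clusters (22.2%) were counted as reaching past the end of the CDS. Of these 13.3% were significant, beside 8.93% of the remaining clusters. Clusters whose downstream end lay outside the exons of the transcript used were counted among the remaining ones. A replicate 1 cluster of Spata3 that covered the stop codon was 1 of them, so the counts of crossing clusters may be too low. In replicate 2 it was 644 clusters (24.2%), with 20.2% and 13.7%. When touching significant clusters were joined, the significant clusters before the stop codon belonged to 307 sites in replicate 1 and 385 in replicate 2. The median width of these sites was 69 and 70 bases. By the same count, with the same limit, 34.9% and 37.1% of them crossed from the CDS into the 3'UTR.

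The replicates shared a part of these sites. In 293 genes a cluster before the stop codon was significant in replicate 1, in 366 genes in replicate 2, and in 87 genes in both, which is 7.12% of the 1222 genes with a cluster there in both replicates. In 80 of the 87 genes the significant clusters overlapped. In 942 of the 1222 genes no cluster before the stop codon was significant in either replicate. Of the significant clusters, 128 of 329 in replicate 1 (38.9%) and 114 of 407 in replicate 2 (28.0%) had at least 1 base in common with a significant cluster of the other replicate. In the rest of the CDS these shares were 35.9% and 27.3%, and no difference was found (odds ratio 1.13, 0.901 to 1.43, adjusted p = 0.309, and 1.03, 0.826 to 1.30, adjusted p = 0.773, Fisher's exact test). These shares include significant clusters that met no cluster of the other replicate. Among those that met any, 60.1% and 44.5% were shared before the stop codon, beside 51.4% and 40.8% in the rest of the CDS. This second comparison was not tested. With both thresholds at 3, sharing was less frequent before the stop codon, with an odds ratio of 0.689 (adjusted p = 0.192) in replicate 1 and 0.549 (adjusted p = 0.0257) in replicate 2 by Fisher's exact test.

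Across 1390 pairs of overlapping clusters in 1126 genes, the log2(fold change) of the replicates correlated across pairs (r = 0.633, Pearson; rho = 0.559, Spearman). These are values across clusters, which share libraries and, where neighbours touch, reads. A cluster that overlapped several clusters of the other replicate entered several pairs, as in 1700001C19Rik, so some values were counted more than once. Both members of 112 pairs were significant, 81 pairs were significant in replicate 1 only, 123 in replicate 2 only and 1074 in neither. Among the 630 pairs with at least 10 IP reads in both replicates, r was 0.781 and rho 0.677.

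**Figure D4:**
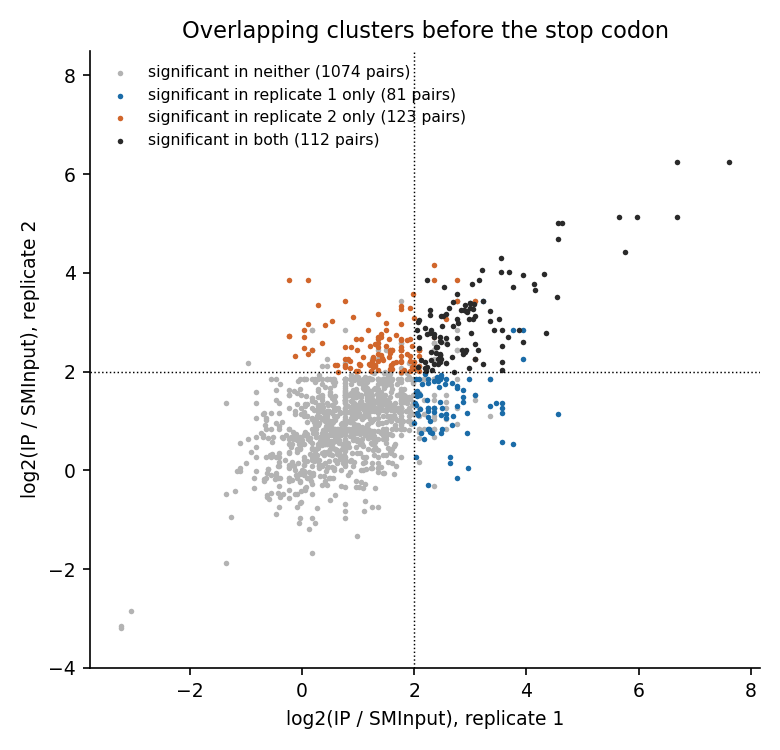
Each point is a pair of overlapping clusters before the stop codon, with the log2 ratio of IP to SMInput in replicate 1 (x axis) and replicate 2 (y axis), coloured by the replicates in which it was significant, and dotted lines mark a log2 ratio of 2. The 112 pairs significant in both lie along the diagonal, and grey points past both lines did not reach the P value.

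The strongest site lay in 1700001C19Rik, a gene with a RIKEN clone name, on chromosome 17. All 5 of its clusters in replicate 1 and both in replicate 2 were significant. At 90 bases before the CDS end, 348 IP and 3 SMInput reads gave a log2(fold change) of 7.62 in replicate 1 (95% counting interval 6.06 to 9.90), which was the highest of all clusters before the stop codon. Its strongest overlapping pair had log2(fold change) values of 6.69 and 6.26 and the top listed −log10(P value) of 400 in both replicates, for which read numbers were not recovered. As all of these clusters passed the fold change threshold, the IP exceeded the SMInput in each by rule. The second cluster of replicate 2 ran 42 bases into the 3'UTR.

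St6galnac2, which encodes a sialyltransferase, had the next strongest site, and GENCODE M21 lists 2 overlapping gene models under this symbol. In the shorter model (ENSMUSG00000110170), whose stop codon lies in the first of 3 exons, the pair of clusters had log2(fold change) values of 4.64 and 5.01 with −log10(P value) listed at 400. No exon of the longer model (ENSMUSG00000057286) covers that position. Before the stop codon of the longer model, 205 IP and 42 SMInput reads in replicate 1 and 179 and 67 in replicate 2 gave log2(fold change) values of 3.05 and 3.27. That position also lies in an exon of the other model, so reads there cannot be given to one of them.

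Cnot4 and Cbll1, which act in mRNA decay and in RNA methylation, were among the 10 strongest sites. Cnot4, an E3 ubiquitin ligase attached to the CCR4-NOT deadenylase complex, had 104 IP and 10 SMInput reads in replicate 1 and 110 and 29 in replicate 2, with log2(fold change) values of 4.14 and 3.77. The replicate 1 cluster crossed the stop codon and ended 17 bases into the 3'UTR. Cbll1 encodes HAKAI, an E3 ubiquitin ligase that is also part of the m6A methyltransferase complex. Its site, centred 77 and 65 bases before the CDS end, had 69 IP and 5 SMInput reads in replicate 1 and 38 and 12 in replicate 2, with values of 4.55 and 3.51. In both genes and both replicates the IP exceeded the SMInput once both were scaled to their library, as the fold change threshold required.

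Among sperm genes, Spata31, a spermatogenesis-associated gene, had 32 IP reads and 1 SMInput read in replicate 1, where the counting interval of the log2(fold change) of 5.76 ran from 3.18 to 11.1. In replicate 2 it had 48 and 8 reads and a value of 4.43 (3.34 to 5.72). Both clusters were centred 58 bases before the CDS end. Spata3 had 153 IP and 20 SMInput reads in replicate 1 (log2(fold change) 3.70) and a value of 4.02, listed at 400, in replicate 2. Cfap300, a cilia and flagella associated protein needed for dynein assembly, had 16 and 2 reads in replicate 1 (3.76, counting interval 1.67 to 6.93) and 11 and 3 in replicate 2 (3.72, 1.80 to 6.20). Its intervals reach below the threshold of 2, and another basic transcript at its position belongs to a different kind of region or to a different gene.

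Another 2 of the 10 strongest sites lay in 9930021J03Rik and Paqr5. In 9930021J03Rik, 47 IP and 4 SMInput reads in replicate 1 and 57 and 13 in replicate 2 gave log2(fold change) values of 4.32 and 3.98. Paqr5, a membrane progestin receptor, had 18 and 2 reads in replicate 1 (3.93, counting interval 1.87 to 7.08) and 13 and 3 in replicate 2 (3.96, 2.1 to 6.42).

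Some genes carried several significant clusters before the stop codon, side by side. In Dcaf12, a substrate receptor of a cullin ubiquitin ligase, 4 touching clusters of replicate 1, with 27 to 48 IP reads and 4 to 12 SMInput reads, met a single cluster of replicate 2 with 49 and 21 reads. Their log2(fold change) values were 2.76 to 3.52 in replicate 1 and 3.07 in replicate 2. The counting intervals began at 1.69 to 2.00 in replicate 1 and at 2.31 in replicate 2. Odf1, a protein of the outer dense fibres of the sperm tail, had 3 clusters in replicate 1 and 4 in replicate 2. All of them were listed at 400, with log2(fold change) values of 2.93 to 3.0 and 3.22 to 3.40. Such clusters are parts of 1 stretch of reads and not separate sites.

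**Figure D5:**
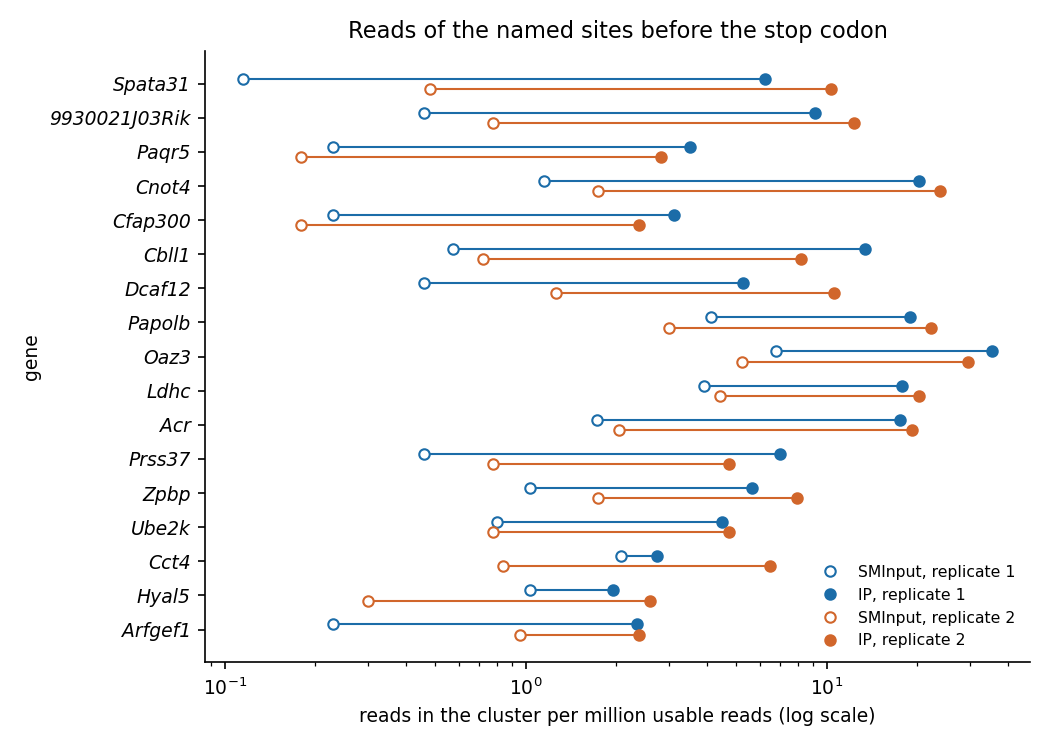
Reads in the cluster, in RPM of the usable reads of the library (x axis, log scale), are plotted for each named gene with recovered reads in both replicates (y axis), with open circles for the SMInput, filled circles for the IP and a line joining them. The IP lies above the SMInput for every gene, which the fold change threshold required wherever a site was significant. The lines of Cct4, Hyal5 and Arfgef1, chosen for unequal pairs, differ in length between the replicates.

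For each gene list, the number of genes bound before the stop codon is given beside the 7.12% of all genes with a cluster in both replicates. The numbers were small, and no difference between the lists was tested. In the acrosome list, 4 of 24 such genes (16.7%) were significant in both replicates, namely Acr, Prss37, Spata31 and Zpbp. Acr, the acrosomal protease acrosin, had 90 IP and 15 SMInput reads in replicate 1 and 89 and 34 in replicate 2, with log2(fold change) values of 3.35 and 3.24, and its clusters ended 8 and 4 bases past the CDS end. Prss37, a serine protease family member needed for sperm function, had 36 and 4 reads in replicate 1 and 22 and 13 in replicate 2 (3.93 and 2.61). Zpbp, a zona pellucida binding protein, had 29 and 9 reads in replicate 1 and 37 and 29 in replicate 2 (2.45 and 2.20). The counting intervals of Zpbp reached below the threshold of 2 in both replicates (1.33 to 3.71 and 1.46 to 2.95). That of Prss37 did so in replicate 2 (1.55 to 3.72). A second replicate 1 cluster of Zpbp did not pass (1.68). A further 14 of the 24 genes were significant in neither replicate. In single replicates 8 of 32 and 9 of 28 acrosome genes (25.0% and 32.1%) passed, beside 10.5% and 16.0% of all genes with a cluster there.

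In the flagellum and axoneme list, 4 of 34 genes (11.8%) were significant in both replicates, namely Ldhc, Oaz3, Odf1 and Spata3. In single replicates 7 of 48 and 7 of 49 genes of this list (14.6% and 14.3%) passed, beside 10.5% and 16.0% of all genes with a cluster there. Oaz3, the antizyme of ornithine decarboxylase made in spermatids, had 182 IP and 59 SMInput reads in replicate 1 and 137 and 87 in replicate 2 in its strongest pair, with log2(fold change) values of 2.39 and 2.50. Another basic transcript at this position belongs to a different kind of region or to a different gene. Ldhc, the lactate dehydrogenase of sperm, had 91 and 34 reads in replicate 1 and 94 and 74 in replicate 2 (2.18 and 2.19). Of its 3 clusters, 1 passed in replicate 1 and 3 passed in replicate 2, and the other values of replicate 1 were 2.00 and 1.57.

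In the list of RNA-binding and translation regulators, 2 of 29 genes (6.90%) were significant in both replicates, Cnot4 and Papolb, a poly(A) polymerase of the testis. Papolb had 97 IP and 36 SMInput reads in replicate 1 and 103 and 50 in replicate 2, with log2(fold change) values of 2.19 and 2.89. Its counting intervals began at 1.63 in replicate 1 and at 2.39 in replicate 2. In the ubiquitin and proteasome list it was 2 of 28 genes (7.14%), Ube2k among them. Ube2k, a ubiquitin-conjugating enzyme, had 23 and 7 reads in replicate 1 and 22 and 13 in replicate 2 (2.48 and 2.61). Its counting intervals began at 1.21 and 1.55, and another of its replicate 2 clusters did not pass (1.92). By this measure, which rests on 2 genes in each list, the shares of both lists were close to that of all genes. In single replicates they were less so. Of the RNA-binding and translation regulators 5.77% and 9.76% passed in replicates 1 and 2, and of the ubiquitin and proteasome genes 16.4% and 16.3%. Among all genes with a cluster there it was 10.5% and 16.0%. These shares were not tested.

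Chromatin regulators and meiosis genes had no gene that was significant before the stop codon in both replicates, of 11 and 14 genes with a cluster there in both. With so few genes, this was not tested against the 7.12% of all genes. In single replicates 1 of 24 and 3 of 25 chromatin regulators (4.17% and 12.0%) passed, in replicates 1 and 2, and 3 of 31 and 4 of 26 meiosis genes (9.68% and 15.4%), beside 10.5% and 16.0% of all genes with a cluster there in that replicate. Dot1l, the methyltransferase of histone H3 lysine 79, had 16 IP and 22 SMInput reads in replicate 1 and 15 and 51 in replicate 2, with log2(fold change) values of 0.30 and 0.08. Bag6, a chaperone needed for spermatogenesis, had 1 cluster in replicate 1 (log2(fold change) 0.98) and 2 in replicate 2 (0.54 and 1.19), the last with 67 and 106 reads. Hdac11, a histone deacetylase, had a cluster in replicate 2 alone (0.13), and so did the chromatin remodelers Chd5 (0.85) and Smarca2 (-0.34). None of these clusters was significant, which concerns the last 100 bases of the CDS and not the rest of the gene.

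Many pairs were significant in 1 replicate only. Of the 630 pairs with at least 10 IP reads in both, 42 were significant in replicate 1 only and 62 in replicate 2 only, beside 107 in both. The most unequal of them are given here. Among overlapping pairs with at least 10 IP reads in both and significance in 1 replicate, Cct4, a subunit of the TRiC chaperonin, differed most. It had 14 IP and 18 SMInput reads in replicate 1 (log2(fold change) 0.40, counting interval -0.72 to 1.49) and 30 and 14 in replicate 2 (2.95, 1.99 to 3.98), so the intervals did not overlap. Cct4 was picked for the largest gap among these pairs, so its intervals cannot serve as a test of a difference between the replicates. Hyal5, a sperm hyaluronidase, had 10 and 9 reads in replicate 1 (0.91, counting interval -0.54 to 2.39) and 12 and 5 in replicate 2 (3.11, 1.5 to 4.97), so the intervals overlapped. Arfgef1, an exchange factor of ARF proteins, went the other way, with 12 and 2 reads in replicate 1 (3.35, 1.18 to 6.55) and 11 and 16 in replicate 2 (1.31, 0.05 to 2.51), again with overlapping intervals.

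Genes with a significant cluster before the stop codon often had one in another region too. Such a cluster could touch the one before the stop codon and be part of the same stretch of reads. Touching clusters were not set apart, so these counts do not give separate sites. Of the 87 genes significant there in both replicates, 62 (71.3%) also had a significant cluster in both replicates in the rest of the CDS, 24 (27.6%) in the first 100 bases of the 3'UTR and 31 (35.6%) further down the 3'UTR. In 16 genes (18.4%) no other of these regions, the first 100 bases of the CDS included, was significant in both. Of the 942 genes with clusters before the stop codon and none significant, 143 (15.2%) were significant in both replicates in the rest of the CDS and 185 (19.6%) in any part of the 3'UTR. Of the 87 genes, 41 (47.1%) were significant in both in any part of the 3'UTR. Among all 1222 genes the shares were 22.4% for the rest of the CDS and 24.4% for the 3'UTR. These counts were not tested.

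The letters of the end of the CDS were counted in the same groups of genes. TGA was the stop codon of 50 of the 87 genes (57.5%), of 48.2% of the 936 genes with none significant and an annotated stop codon, and of 49.1% of all 18342 eligible genes with one. TAG ended 13 of the 87 (14.9%), beside 21.7% and 22.9%. The median GC content of the last 100 bases was 51%, 52% and 51%. GGAC, a form of the m6A consensus, occurred on the mRNA strand of these 100 bases in 28 of the 87 genes (32.2%), in 36.4% of the genes with none significant and in 36.5% of all. CACA, a CA-rich element of the kind known for this protein family, occurred in 39 (44.8%), 34.9% and 37.3%, and AAACC in 14 (16.1%), 9.83% and 10.4%. GAACA occurred in 12.6%, 12.4% and 14.8%, and TGCAT in 9.20%, 7.80% and 7.21%. These are counts of letters in 1 transcript per gene, given without a test. The whole window lay in the last exon in 74.7% of the 87 genes, in 54.7% of those with none significant and in 76.2% of all. The median CDS was 1125 bases in the 87 genes, 1496 bases in those with none significant and 1383 bases in all.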

How the data were processed

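eCLIP-seq of mouse testes comprised 4 samples, an IP and an SMInput library for each of 2 replicates. Per the labels and methods, the authors trimmed adapters with cutadapt, removed ribosomal RNA reads with Bowtie2, aligned reads to mm10 with STAR, collapsed PCR duplicates by molecular identifiers, called clusters with Clipper and compared IP with SMInput in each. The deposited −log10 values are the P values of that comparison, with 400 at the top. A value of 0 is listed where the IP was not enriched and for some clusters with a log2 value above 0. The deposited log2 values are fold changes between IP and SMInput after the authors scaled both to library size. Other per-sample columns were not used.

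Read numbers were recovered as whole numbers that return both listed values, by Fisher's exact test where an observed or expected number was below 5 and a Yates chi-square test otherwise. A single solution was found for 99.9% and 99.7% of those clusters whose −log10(P value) lay above 0 and under 400. A recovered SMInput number of 1 is the lowest used and may stand for 0 reads. Counting intervals of fold changes are exact binomial ones. Clusters were placed by their centre on GENCODE M21 basic transcripts, ties going to the longest transcript. A total of 24 and 11 clusters lay in the window of more than 1 gene and were counted once, and 15 and 11 lay on transcripts without an annotated stop codon. Counts were tested with Fisher's exact test, two-sided, in scipy 1.17.1, and 12 tests were adjusted together (Benjamini-Hochberg). Pooled odds ratios are Mantel-Haenszel estimates (statsmodels 0.14.6). The tests were tried first on simulated counts of independent clusters. These held no shared reads and no grouping by gene, so the trial does not cover that dependence in the data. Groups of samples were not tested against each other, as there were 2 replicates, and the paper calls these biological replicates, while no sample label ties them to single animals. No control IP with an unrelated antibody was used here.

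The members, gene lists and tests were chosen with earlier results of these data known. Named genes were the 10 with the largest smaller log2(fold change) in overlapping significant pairs with at least 10 IP reads (or a listed 400), the 5 with the most shared clusters, 5 genes named in the paper with these data, up to 4 per gene list significant in both replicates, and the 3 with the most unequal pairs. Genes of chromosome 18 were not named, and 2 genes that the rule chose are not reported here.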

Additional observations from a re-analysis of the deposited data

How the results depend on the processing

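Both thresholds at 3 left 2.38% and 3.11% of clusters before the stop codon significant in replicates 1 and 2, beside 1.18% and 2.42% of all clusters, and a log2(fold change) of at least 1 gave 16.5% and 27.4%. The last 50 bases gave 11.2% and 16.9%, the last 200 bases 8.49% and 13.2%, and clusters lying wholly inside the window 8.35% and 12.4%. Against the rest of the CDS, the first 100 bases of the CDS and the first 100 bases of the 3'UTR, all odds ratios kept their direction and passed under the 11 alternatives chosen at the start. For the rest of the CDS they ran from 1.75 to 2.42 in replicate 1 and from 1.74 to 2.40 in replicate 2. With the replicate as a block the pooled odds ratios were 2.11, 3.05 and 0.645. The exception came from the comparisons by exon, added after the data were seen: in the last exon alone the odds ratio to the rest of the CDS reversed to 0.791 and 0.761, in genes with an intron to 0.835 and 0.766, while compared within the last exon of the same genes and pooled it was 2.04 and 1.56. In earlier exons it was 1.32 (adjusted p = 0.0765) and 1.59 (adjusted p = 0.00168, Fisher's exact test). The cause was not tested. With both thresholds at 3, the odds ratios for the last 50 bases were 0.916 and 1.37, those for the last exon 1.26 and 1.22, and those for sharing 0.689 and 0.549. Genes significant in both replicates numbered 21 at thresholds of 3. Without the other replicate, 293 to 366 genes were significant at thresholds of 2, the 87 genes of both replicates included. Pearson's r was 0.781 for pairs with at least 10 IP reads. Of 18 named genes significant in both replicates, 12 passed both thresholds at 3. A total of 55 significant clusters before the stop codon in replicate 1 and 144 in replicate 2 held fewer than 10 IP reads.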
